A study of Homo sapiens with 12 samples.

Results

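RNA levels of 46 genes that license, unwind and copy DNA at replication origins were followed on 12 arrays of the human airway epithelial line Calu-3. The genes were taken from a named list, and all 46 were measured among the 18417 genes with a probe set of a single gene symbol. The control oligonucleotide NC1, a scrambled sequence, was given to the cells of 6 arrays. A small interfering RNA (siRNA) against SIN3A was given to those of 3 arrays and a mimic of miR-138, a microRNA, to those of the last 3. SIN3A holds together a repressive complex with histone deacetylases, and the title of the study places these oligonucleotides in a microRNA network around an epithelial chloride channel. All cells, controls included, had received an oligonucleotide with the lipid reagent Lipofectamine RNAiMAX, and no array carried untransfected cells. Neither dose nor harvest time is stated in the labels. The labels call the arrays biological replicates without saying that they came from separate cultures, so the spread behind every p-value is that between arrays and may be technical. Calu-3 is named in all labels, although the notes on RNA extraction mention primary cultures.

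Replication is prepared when the origin recognition complex (ORC1 to ORC6), CDC6 and CDT1 load the ring of MCM2 to MCM7 onto DNA, a step that geminin (GMNN) blocks outside its time window. The kinase CDC7 with its activator DBF4, MCM10, CDC45 and the GINS complex (GINS1 to GINS4) turn the loaded ring into an active helicase. Primase and DNA polymerase alpha then begin each strand, the clamp PCNA is placed by the loader RFC1 to RFC5, and polymerases delta and epsilon extend. Many of these genes are known to be transcribed as cells enter S phase under the E2F factors, so that RNA levels of a culture follow the share of its cells that are cycling as well as transcription in each cell.

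The promoters of members on which the results turn are given here because E2F factors are known to bind sequences of the type TTTCCCGC, TTTCGCGC, TTTGCCGC or TTTGGCGC. RefSeq promoter windows (build GRCh38.p14, 250 bases before the gene start and 50 from it on) were found for 39 of the 46 members, and the other 7 (MCM4, MCM5, GINS4, POLD3, DNA2, RPA2 and RPA3) are named only. Gene start here means the start that the window uses. For PRIM2, ORC1, CDC45 and POLD2 it lies inside the gene span in RefSeq and not at its outer end. Each line holds 196 bases, 180 before the gene start and 16 from it on, written 5′ to 3′ on the strand of the gene, with capitals for the letters of these 4 motifs on either strand. The clamp gene PCNA lies at chr20:5126607-5126802 on the minus strand, the helicase subunits MCM3 and MCM6 at chr6:52284727-52284922 and chr2:135876428-135876623 on the minus strand, and the GINS subunit GINS1 at chr20:25407493-25407688 on the plus strand. POLA1, the catalytic subunit of polymerase alpha, lies at chrX:24693738-24693933 on the plus strand, the origin subunit ORC6 at chr16:46689479-46689674 on the plus strand, and the primase catalytic subunit PRIM1 at chr12:56752308-56752503 on the minus strand.
PCNA: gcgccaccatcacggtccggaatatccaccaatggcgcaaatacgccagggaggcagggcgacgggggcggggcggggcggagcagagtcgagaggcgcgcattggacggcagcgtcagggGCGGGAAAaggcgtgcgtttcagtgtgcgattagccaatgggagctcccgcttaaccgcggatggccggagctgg
MCM3: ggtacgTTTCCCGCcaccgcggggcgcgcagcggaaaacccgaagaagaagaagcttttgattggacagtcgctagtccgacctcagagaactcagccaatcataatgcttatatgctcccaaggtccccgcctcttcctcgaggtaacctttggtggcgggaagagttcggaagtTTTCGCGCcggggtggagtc
MCM6: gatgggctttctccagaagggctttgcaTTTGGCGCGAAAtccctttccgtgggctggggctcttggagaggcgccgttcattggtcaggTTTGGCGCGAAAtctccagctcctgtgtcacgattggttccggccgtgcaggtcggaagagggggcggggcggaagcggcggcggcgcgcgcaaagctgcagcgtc
GINS1: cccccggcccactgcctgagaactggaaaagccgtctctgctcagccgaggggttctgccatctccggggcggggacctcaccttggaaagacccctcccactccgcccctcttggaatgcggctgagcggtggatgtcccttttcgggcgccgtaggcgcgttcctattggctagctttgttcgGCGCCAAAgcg
POLA1: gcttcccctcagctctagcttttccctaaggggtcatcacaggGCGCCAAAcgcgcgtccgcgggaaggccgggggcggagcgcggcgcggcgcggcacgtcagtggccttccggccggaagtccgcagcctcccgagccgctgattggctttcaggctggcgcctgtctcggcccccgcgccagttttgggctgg
ORC6: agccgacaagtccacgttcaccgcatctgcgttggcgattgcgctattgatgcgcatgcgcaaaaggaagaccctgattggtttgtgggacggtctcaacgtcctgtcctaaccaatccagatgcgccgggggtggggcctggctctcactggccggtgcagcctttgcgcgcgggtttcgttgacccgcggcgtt
PRIM1: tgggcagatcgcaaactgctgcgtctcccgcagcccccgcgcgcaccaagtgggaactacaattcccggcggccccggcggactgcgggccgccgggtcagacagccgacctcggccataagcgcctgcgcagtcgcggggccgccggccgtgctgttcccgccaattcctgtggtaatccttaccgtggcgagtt

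Positions here are counted from the gene start, with bases before it negative. The PCNA promoter held 1 match, TTTCCCGC on the opposite strand, at -59 to -52. MCM6 held 4 matches in 2 overlapping pairs, at -152 to -141 and -90 to -79. MCM3 held 1 match at -174 to -167 and 1 across the start, at -4 to 3. POLA1 held 1 at -137 to -130, and GINS1 held 1 at 5 to 12, inside the transcribed part. The lines of ORC6 and PRIM1 have no capitals, since none of the 4 motifs was in their windows, which says nothing about binding of the factors. Over the 39 windows of members, 18 (46.2%) held at least 1 of the 4 motifs on either strand, against 908 (3.33%) of all 27305 windows of the same length and 4.52% of the 14239 measured genes with a window. TTTCCCGC was in 10 members, TTTGGCGC in 6, TTTCGCGC in 5 and TTTGCCGC in none. The CCAAT letters, which trimeric NF-Y is known to bind, were in 22 members (56.4%), against 35.7% of all windows, and 11 members (28.2%) held both kinds of letters, against 1.29%. A match is a description of the letters and not a measured site.

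**Figure D1:**
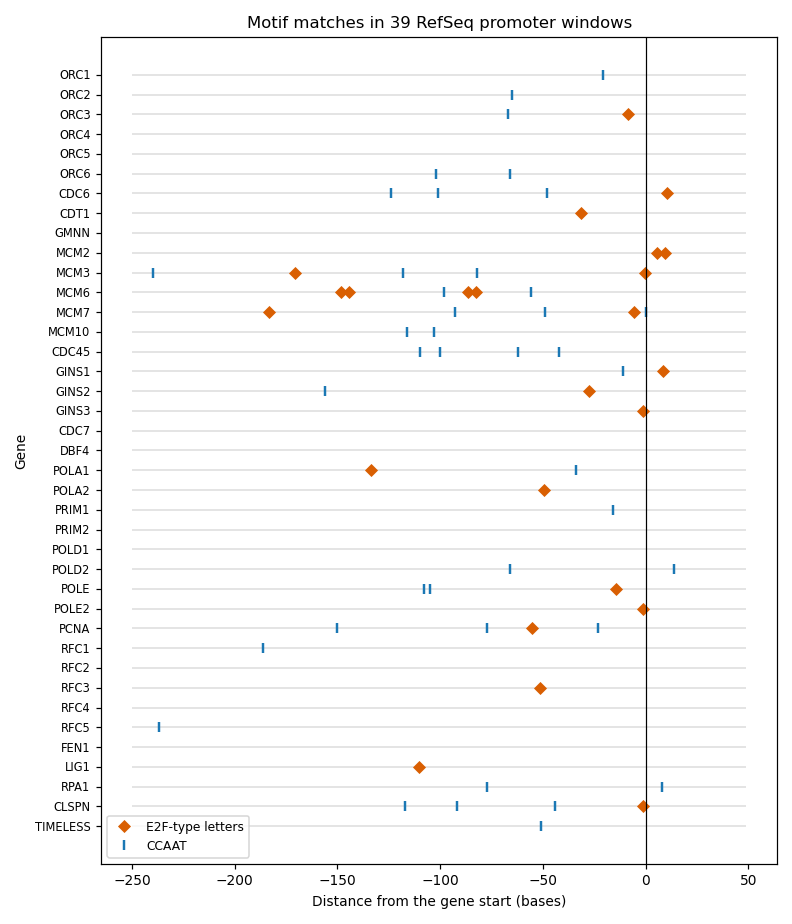
Each row is the promoter window of 1 member, drawn as distance in bases from the gene start that the window uses (vertical line at 0). Diamonds mark matches to the 4 E2F-type motifs and ticks mark CCAAT, on either strand. Of the 39 members drawn, 18 have diamonds, and PCNA, MCM6 and MCM3 have both kinds of mark.

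The labels give no sequence for the mimic. The 5p arm of miR-138 in RefSeq is encoded at chr3:44114234-44114256 and at chr16:56858527-56858549, both on the plus strand, and is shown with its seed (bases 2 to 8) in capitals. The labels do not say which arm the mimic copies.
hsa-miR-138-5p: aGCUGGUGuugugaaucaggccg

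The identity of the cells was read from marker lists. The epithelial genes EPCAM and KRT19 were high in every group, with group means of 10.59 to 10.81 and 9.54 to 9.82 on the log2 scale. KRT8, KRT18 and CDH1 had group means between 7.66 and 8.74, and CLDN4, ELF3 and MUC1 between 5.71 and 6.50, nearer the median of all probe sets (5.12). The chloride channel gene CFTR, also on the epithelial list, was lower with the siRNA than in NC1 by limma (difference of -1.34, adjusted p = 0.000203). The 5 endothelial genes averaged between 4.01 and 4.25 on each array, below that median. On the fibroblast and leukocyte lists, DCN, LUM and PTPRC had group means under 3.00, and THY1, PDGFRB, CD3E, CD14 and ITGAM also lay below it. Of the same lists, COL1A1 (group means of 6.03 to 6.07), COL1A2 (5.22 to 5.40) and COL3A1 (5.21 to 5.25) lay above it. So did VIM, LYZ (8.51 to 8.90) and CD68 (6.58 to 7.13). The mean of the 9 epithelial markers lay between 7.70 and 7.92 on the 12 arrays, that of the 8 fibroblast markers between 4.68 and 4.90, and that of the 6 measured leukocyte markers between 5.30 and 5.52. The mesenchymal filament gene VIM had a mean of 6.60 in NC1 1 to 3 and 7.26 in NC1 4 to 6, and was lower with either treatment than in NC1 4 to 6 (-0.78 with the siRNA and -0.46 with the mimic, limma adjusted p = 1.02e-05 and 0.00282). The macrophage gene CD68 moved the other way: it was lower in NC1 4 to 6 than in NC1 1 to 3 (-0.46, limma adjusted p = 0.0113), and higher with the siRNA (0.55, 0.00266) and with the mimic (0.48, 0.0164) than in NC1 4 to 6. The part of these genes in the results on members was not tested. The targeted gene SIN3A was at 6.79, 6.71 and 6.36 in NC1 1 to 3, at 7.34, 7.16 and 7.11 in NC1 4 to 6, at 6.17, 5.88 and 6.03 with the siRNA and at 5.93, 6.05 and 6.25 with the mimic. It was lower than NC1 by limma with the siRNA (difference of -0.88, adjusted p = 0.0111) and with the mimic (-0.83, adjusted p = 0.0304). SIN3A also differed between the control parts, higher in NC1 4 to 6 by 0.58 (limma adjusted p = 0.00574). Against NC1 1 to 3 the difference was -0.59 with the siRNA (limma adjusted p = 0.0104) and -0.54 with the mimic (0.0113). Against NC1 4 to 6 it was -1.18 (limma adjusted p = 1.24e-05) and -1.13 (4.27e-05).

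The 6 NC1 arrays did not stand together, and this bears on every comparison that follows. Across genes, the arrays of NC1 1 to 3 correlated with each other at a mean r of 0.983 and those of NC1 4 to 6 at 0.990, while arrays from different parts correlated at 0.976. The siRNA arrays correlated at 0.980 with NC1 1 to 3 and 0.978 with NC1 4 to 6, and the mimic arrays at 0.979 and 0.985. Genes are not independent replicates, and these values are descriptions. In the list of samples NC1 1 to 3 stand just before the siRNA arrays and NC1 4 to 6 just before the mimic arrays. The labels number the NC1 arrays 1 to 6 without dividing them, so the split was taken from the values. What distinguishes the parts in the laboratory is not given. P-values between the parts thus describe the gap and are no test of whether it exists. Counts of members are therefore given against all 6 NC1 arrays and against each part. Differences of single genes are from all 6 NC1 arrays unless a part is named.

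The replication genes were among those that separated the NC1 parts. The mean log2 level of the 46 members was 6.16, 6.03 and 5.96 on NC1 1 to 3, and 6.50, 6.52 and 6.38 on NC1 4 to 6. It was 5.99, 5.99 and 5.96 on the siRNA arrays and 6.07, 6.06 and 6.11 on the mimic arrays. The mean over all genes stayed between 5.35 and 5.38 on all 12 arrays. NC1 4 to 6 stood above the other 9 arrays, and the treated arrays lay at the level of NC1 1 to 3. In bulk RNA, fewer cycling cells and less RNA per cell cannot be told apart.

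**Figure D2:**
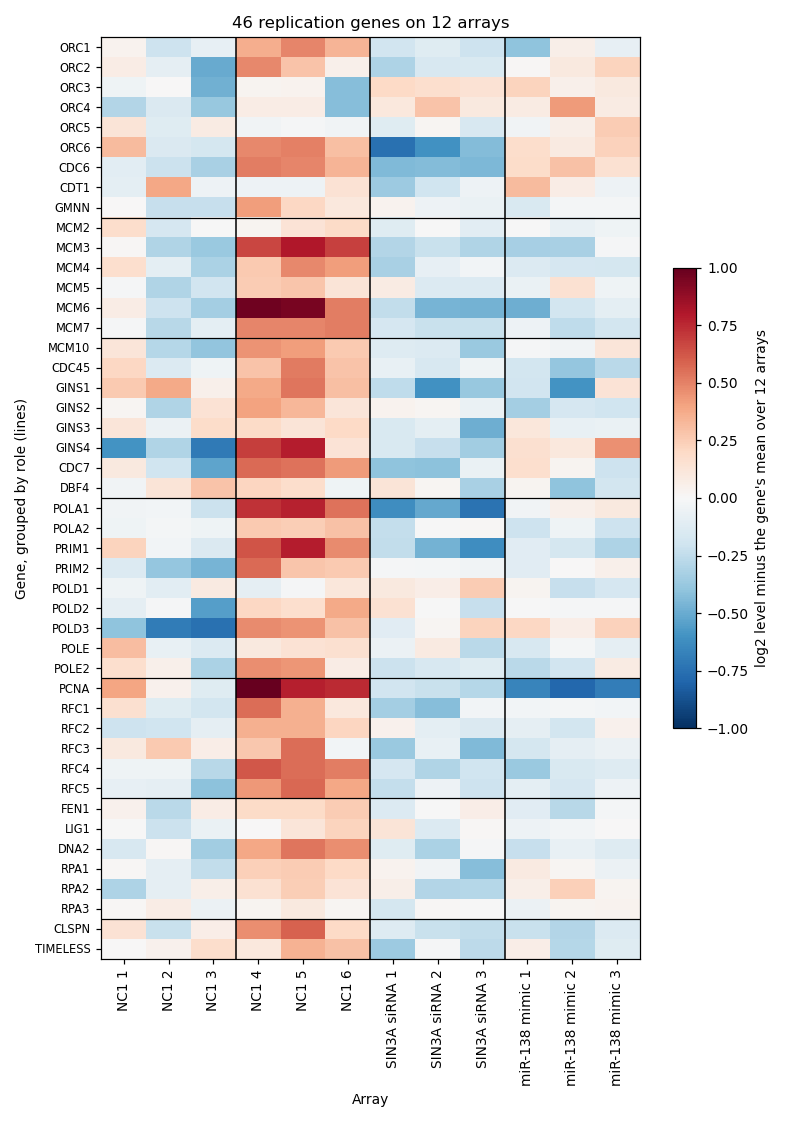
Each row is 1 of the 46 members, grouped by role between the horizontal lines, and each column is 1 array. Colour gives the log2 level minus the mean of that gene over 12 arrays, with values past 1 in either direction shown at the end of the scale. The 3 columns of NC1 4 to 6 are red for nearly every gene, and PCNA is blue on all 3 mimic arrays.

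Between the NC1 parts, 26 of 46 members were higher in NC1 4 to 6 and none was lower by limma at an adjusted p under 0.05 over all 18417 genes. Over all genes 6.86% were higher and 3.18% lower by the same test. The median difference of the members was 0.39, 43 of 46 were positive, and the 3 negative ones (CDT1, DBF4 and ORC5) lay between -0.07 and -0.01. The arrays of NC1 4 to 6 lay above all of NC1 1 to 3 for 28 members and below for none, against 12.0% and 10.4% of all genes. No intervention distinguishes these arrays in the labels, so the count shows how far members moved between control arrays alone. The count of 26 fell to 16 without NC1 array 5, while the share of all genes called higher went from 6.86% to 3.86%. With 3 arrays against 3 an exact permutation test cannot go below p = 0.1, and for these comparisons only the limma values are given. Because the split was taken from these same values, the p-values between the parts here and below are descriptions and not tests.

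By role, 5 of 9 loading genes, 5 of 6 MCM2-7 genes, 4 of 8 activation genes, 6 of 9 polymerase and primase genes, 4 of 6 clamp and loader genes, 1 of 6 genes for lagging strand and single-strand binding, and 1 of 2 fork protection genes were higher in NC1 4 to 6. Over all genes the share called higher was 6.86%. The members in this and the next paragraph beyond the naming rule were chosen after their values were seen. GINS4, a GINS subunit, was at 5.16, 5.45 and 5.04 in NC1 1 to 3 and at 6.44, 6.53 and 5.89 in NC1 4 to 6, a difference of 1.07 (SE 0.15, limma adjusted p = 0.000247). POLD3, an accessory subunit of polymerase delta, was at 7.38, 7.09 and 7.04 against 8.26, 8.24 and 8.08, a difference of 1.02 (SE 0.11, limma adjusted p = 2.02e-05). In both genes the 3 arrays of one part lay clear of the 3 of the other.

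MCM6 was at 6.48, 6.19 and 6.06 in NC1 1 to 3 and at 7.37, 7.35 and 6.91 in NC1 4 to 6 (difference 0.97, SE 0.14, limma adjusted p = 0.000312). MCM3 was at 6.40, 6.09 and 6.02 against 7.06, 7.19 and 7.07 (difference 0.93, SE 0.11, limma adjusted p = 4.92e-05). Both encode subunits of the ring, and both promoters printed above carry matches. The windows of MCM2 and MCM7, not printed, hold 2 matches each. The difference was 0.63 for MCM7, 0.47 for MCM4 and 0.39 for MCM5, all higher in NC1 4 to 6, and 0.12 for MCM2, which did not pass. Of the loader genes, RFC4 was at 8.18, 8.18 and 7.94 against 8.84, 8.78 and 8.73 (0.68), and RFC5 differed by 0.66. The kinase CDC7, which fires origins, was at 5.54, 5.25 and 4.92 against 6.01, 5.99 and 5.87 (0.72), and the primase subunit PRIM2 differed by 0.70. RPA3, the small subunit of the single-strand binding complex, was flat, at 6.33, 6.39 and 6.26 against 6.34, 6.41 and 6.33.

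The comparison of the SIN3A siRNA with NC1 asked which members changed when SIN3A was targeted. 6 of 46 members were lower and none was higher by limma over all genes, against 1.66% lower and 2.35% higher among all genes. The 6 were ORC6, GINS1, POLA1, PRIM1, RFC3 and GINS3, and they come from 4 roles (loading, activation, polymerases and primase, clamp loader). The median difference of the members was -0.27, against -0.01 for all genes, and 42 of 46 were negative. All 3 siRNA arrays lay below all 6 NC1 arrays for 9 members and above for 2, against 3.53% and 5.49% of all genes. At an unadjusted p under 0.05 there were 21 members, against 16.4% of all genes. The count of 6 fell to 1 without siRNA array 1 or 3 and to 2 without siRNA array 2, while the share of all genes called lower went from 1.66% to 0.543%, 0.44% and 0.434% without siRNA array 1, 3 and 2. With the NC1 parts apart in the fit (4 group means, NC1 as the mean of its parts, a setting chosen after the data were seen), 18 members were lower and none higher by limma, against 3.93% lower and 4.64% higher among all genes. PCNA was among the 18 (-0.71, limma adjusted p = 0.000428). This setting leaves the gap between the NC1 parts out of the residual spread. Only 4 members were lower by limma against each part. The standard error of a member's difference had a median of 0.14.

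ORC6, the smallest subunit of the origin recognition complex, was at 7.87, 7.41 and 7.38 in NC1 1 to 3, at 8.04, 8.06 and 7.85 in NC1 4 to 6, and at 6.81, 6.95 and 7.12 with the siRNA. The siRNA arrays lay below every NC1 array, at 57.0% of the NC1 level (difference -0.81, SE 0.15, limma adjusted p = 0.00765, and p = 0.0119 by exact permutation, the lowest value possible for 3 against 6). The difference was -0.60 against NC1 1 to 3 (limma adjusted p = 0.0101) and -1.03 against NC1 4 to 6 (4.42e-05). ORC6 was the member with the smallest adjusted p in this comparison. Its call was lost without siRNA array 1 (limma adjusted p = 0.0520).

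GINS1, a subunit of the active helicase, was at 6.15, 6.27 and 5.94 in NC1 1 to 3, at 6.27, 6.43 and 6.19 in NC1 4 to 6, and at 5.64, 5.29 and 5.51 with the siRNA. This gene did not separate the NC1 parts (difference 0.18, limma adjusted p = 0.546), and the siRNA arrays lay below all NC1 arrays. The difference from NC1 was -0.73 (SE 0.14, limma adjusted p = 0.0110, and 0.0119 by exact permutation over arrays), or 60.3% of the NC1 level. It was -0.64 against NC1 1 to 3 (limma adjusted p = 0.0205) and -0.82 against NC1 4 to 6 (0.00179). The call was lost without siRNA array 2 (limma adjusted p = 0.0756) or 3 (0.0551).

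POLA1, the catalytic subunit of the polymerase that begins each strand, was at 6.13, 6.13 and 5.95 in NC1 1 to 3, at 6.88, 6.94 and 6.70 in NC1 4 to 6, and at 5.54, 5.65 and 5.42 with the siRNA. The 3 sets of arrays did not overlap, with the siRNA lowest. The difference from all NC1 arrays was -0.92 (SE 0.19, limma adjusted p = 0.0162, and 0.0238 by exact permutation over arrays). Against NC1 1 to 3 it was -0.53 (limma adjusted p = 0.00416) and against NC1 4 to 6 it was -1.30 (4.66e-07), so the size depended on the part by more than 1.5 times. The call against all 6 NC1 arrays was lost without any single siRNA array (limma adjusted p = 0.0622 to 0.0999).

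PRIM1, which makes the RNA primers, was at 7.45, 7.19 and 7.08 in NC1 1 to 3, at 7.85, 8.01 and 7.69 in NC1 4 to 6, and at 6.98, 6.75 and 6.60 with the siRNA. Again the siRNA arrays were below every control array, and the highest siRNA array lay close under the lowest NC1 array. The difference was -0.77 from NC1 (SE 0.17, limma adjusted p = 0.0235, and 0.0238 by exact permutation over arrays), -0.46 from NC1 1 to 3 (limma adjusted p = 0.0334) and -1.07 from NC1 4 to 6 (2.26e-05). Its call was lost without any single siRNA array (limma adjusted p = 0.0520 to 0.142).

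RFC3, a subunit of the clamp loader, was at 6.65, 6.82 and 6.62 in NC1 1 to 3, at 6.82, 7.11 and 6.53 in NC1 4 to 6, and at 6.18, 6.48 and 6.11 with the siRNA. The difference was -0.50 from NC1 (SE 0.12, limma adjusted p = 0.0287, and 0.0119 by exact permutation over arrays), -0.44 from NC1 1 to 3 (limma adjusted p = 0.0634, not passing) and -0.56 from NC1 4 to 6 (0.00915). Its call was lost without siRNA array 1 (limma adjusted p = 0.129), siRNA array 3 (0.173) or NC1 array 4 (0.0519). GINS3 was at 4.83, 4.65 and 4.90, then 4.91, 4.84 and 4.91 in NC1 4 to 6, and 4.56, 4.62 and 4.22 with the siRNA. These are dim levels, below the median of all probe sets, and the highest siRNA array, at 4.62, almost touched the lowest NC1 array, at 4.65. The difference of -0.37 (SE 0.10, limma adjusted p = 0.0434, and 0.0119 by exact permutation over arrays) was -0.33 against NC1 1 to 3 (limma adjusted p = 0.0957, not passing) and was lost in 10 of 12 fits that left out 1 array (highest adjusted p = 0.267).

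The other members below all NC1 arrays with the siRNA were CDC6, PCNA and TIMELESS, none of which passed. CDC6, the loading ATPase, was at 9.44, 9.45 and 9.43 with the siRNA, against 9.77, 9.66 and 9.55 in NC1 1 to 3 and 10.39, 10.36 and 10.22 in NC1 4 to 6 (difference -0.55, limma adjusted p = 0.0853). TIMELESS, which protects stalled forks with CLSPN, was at 5.10, 5.45 and 5.20 with the siRNA, against a range of 5.47 to 5.81 in NC1 (difference -0.38, limma adjusted p = 0.0651). ORC3 and ORC4, core subunits of the origin complex, lay above all NC1 arrays. ORC3 was at 6.65, 6.62 and 6.60 with the siRNA against 5.97 to 6.49 in NC1, and ORC4 at 5.90, 6.08 and 5.89 against 5.37 to 5.87. Their differences of 0.32 and 0.34 did not pass (limma adjusted p = 0.180 and 0.163).

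**Figure D3:**
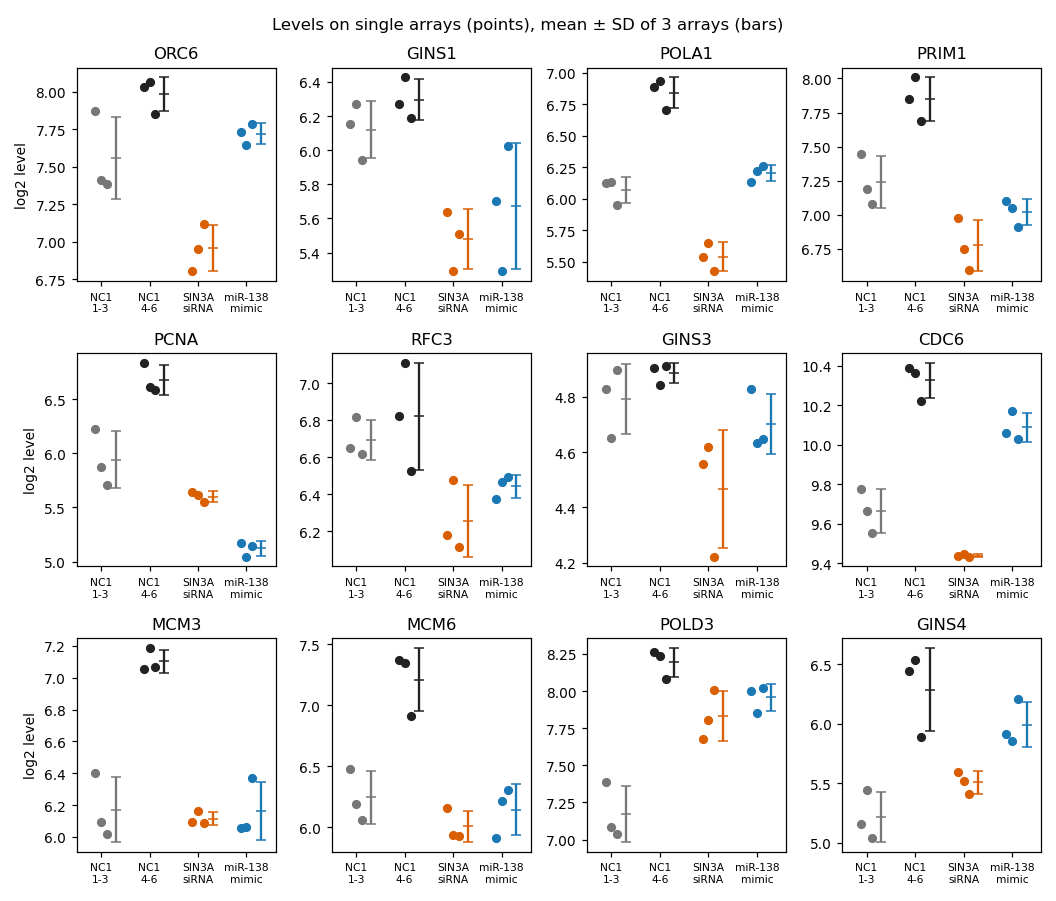
Log2 levels of 12 members, 7 named by the rule (ORC6, GINS1, POLA1, PRIM1, PCNA, RFC3, GINS3) and 5 chosen after their values were seen. Points are single arrays and bars the mean with SD of 3 arrays, with the axis of each panel set to its own range. The siRNA arrays are lowest for ORC6 and POLA1, the mimic arrays are lowest for PCNA, and NC1 4 to 6 are highest for MCM3 and MCM6.

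For the microRNA, the mimic arrays were set against NC1 in the same way. 1 of 46 members, PCNA, was lower and none was higher by limma, against 0.402% lower and 0.641% higher among all genes. The median difference of the members was -0.16. All 3 mimic arrays lay below all NC1 arrays for 3 members (PCNA, CDC45 and RFC3) and above for 2 (ORC3 and ORC4), against 2.54% and 3.89% of all genes. At an unadjusted p under 0.05 there were 15 members, against 11.3% of all genes. The count of 1 lower was 0 without mimic array 1 or 2, 2 without NC1 array 2 and 3 without NC1 array 3. In these fits the share of all genes called lower was 0.0923%, 0.114%, 0.337% and 0.722%, in the same order. With the NC1 parts apart, 9 members were lower and none higher by limma, against 1.52% lower and 2.93% higher among all genes. The 9 were PCNA, MCM6, GINS1, PRIM1, MCM3, CDC45, RFC4, CLSPN and MCM7. As this setting leaves the gap between the NC1 parts out of the residual spread, a call can come from 1 part alone. Only PCNA was lower by limma against each part. This comparison and that of the siRNA share the 6 NC1 arrays.

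PCNA, the sliding clamp that holds the polymerases on DNA, was at 6.23, 5.88 and 5.71 in NC1 1 to 3, at 6.84, 6.61 and 6.58 in NC1 4 to 6, at 5.64, 5.61 and 5.55 with the siRNA and at 5.17, 5.05 and 5.14 with the mimic. The mimic arrays lay below all other arrays, at 44.0% of the NC1 level (difference -1.19, SE 0.20, limma adjusted p = 0.00910, and 0.0119 by exact permutation over arrays). The difference was -0.82 against NC1 1 to 3 (limma adjusted p = 0.000364) and -1.55 against NC1 4 to 6 (5.57e-07), so its size depended on the part by more than 1.5 times. The call against all 6 NC1 arrays was lost without mimic array 1 (limma adjusted p = 0.0628), 2 (0.0693) or 3 (0.0520). With the siRNA the PCNA difference from NC1 was -0.71 (limma adjusted p = 0.0583, and 0.0476 by exact permutation over arrays), which passed without NC1 array 3 (limma adjusted p = 0.00951) or NC1 array 2 (0.0316). Against NC1 1 to 3 the siRNA difference was -0.34 (limma adjusted p = 0.110).

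CDC45, which joins the ring and GINS in the active helicase, was at 6.33, 6.12 and 6.24 with the mimic, against 6.72, 6.37 and 6.47 in NC1 1 to 3 and 6.79, 7.03 and 6.80 in NC1 4 to 6. The mimic arrays were below every control array by a small margin, and the difference of -0.47 did not pass (limma adjusted p = 0.0899). GINS1 was at 5.70, 5.29 and 6.02 with the mimic, a wide spread that overlapped NC1 1 to 3 (difference -0.53, limma adjusted p = 0.0944), and it passed without NC1 array 3 (0.0483) or mimic array 3 (0.0494). PRIM1 was at 7.10, 7.05 and 6.91 (-0.52, limma adjusted p = 0.212) and POLA1 at 6.13, 6.22 and 6.26 (-0.25, 0.711). Against NC1 1 to 3 PRIM1 differed by -0.22 and POLA1 by 0.13, and neither passed in any fit that left out 1 array. Against NC1 4 to 6 they differed by -0.83 and -0.64, and both passed by limma in every such fit. RFC3 was at 6.37, 6.46 and 6.49 (-0.31, limma adjusted p = 0.292) and GINS3 at 4.83, 4.63 and 4.65 (-0.14, 0.672). ORC6 was at 7.73, 7.65 and 7.79, inside the range of the NC1 arrays (difference -0.05, 95% interval -0.36 to 0.26, limma adjusted p = 0.948). From NC1 1 to 3 ORC6 differed by 0.17 and from NC1 4 to 6 by -0.26. ORC3 was at 6.67, 6.50 and 6.55 and ORC4 at 5.88, 6.22 and 5.87, both just above the highest NC1 array, with differences of 0.27 and 0.38 that did not pass (limma adjusted p = 0.403 and 0.208).

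Against each part of the control the counts differed widely. With the siRNA, 4 members were lower (2 without NC1 array 2 or siRNA array 3) and 1 was higher (2 without NC1 array 1 or 6) than in NC1 1 to 3, against 2.04% and 3.66% of all genes, and 30 were lower and none was higher than in NC1 4 to 6, against 6.28% and 5.16%. The medians were -0.07 and -0.46. With the mimic, 1 member was lower (2 without mimic array 3) and 4 were higher than in NC1 1 to 3, against 2.54% and 6.01% of all genes, and 17 were lower and none was higher than in NC1 4 to 6, against 1.89% and 1.59%. The medians were 0.01 and -0.36. Each NC1 part enters both treatments' comparisons, and NC1 4 to 6 also entered the comparison of the parts, where 26 members were higher.

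Members that passed against each NC1 part in 1 direction were few. With the siRNA 4 members were lower against each part (ORC6, GINS1, POLA1 and PRIM1), against 0.972% of all genes, and none was higher, against 1.5%. With the mimic PCNA was lower against each part, against 0.407% of all genes, and no member was higher, against 0.619%. The siRNA mean lay below both parts for 31 members, above both for 3 (ORC3, ORC4 and POLD1) and between them for 12. Over all genes, 32.6% lay below both parts and 31.4% above. The mimic mean lay below both for 23, above both for 4 (ORC3, ORC4, ORC5 and CDT1) and between them for 19, against 34.2% below and 27.0% above among all genes.

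**Figure D4:**
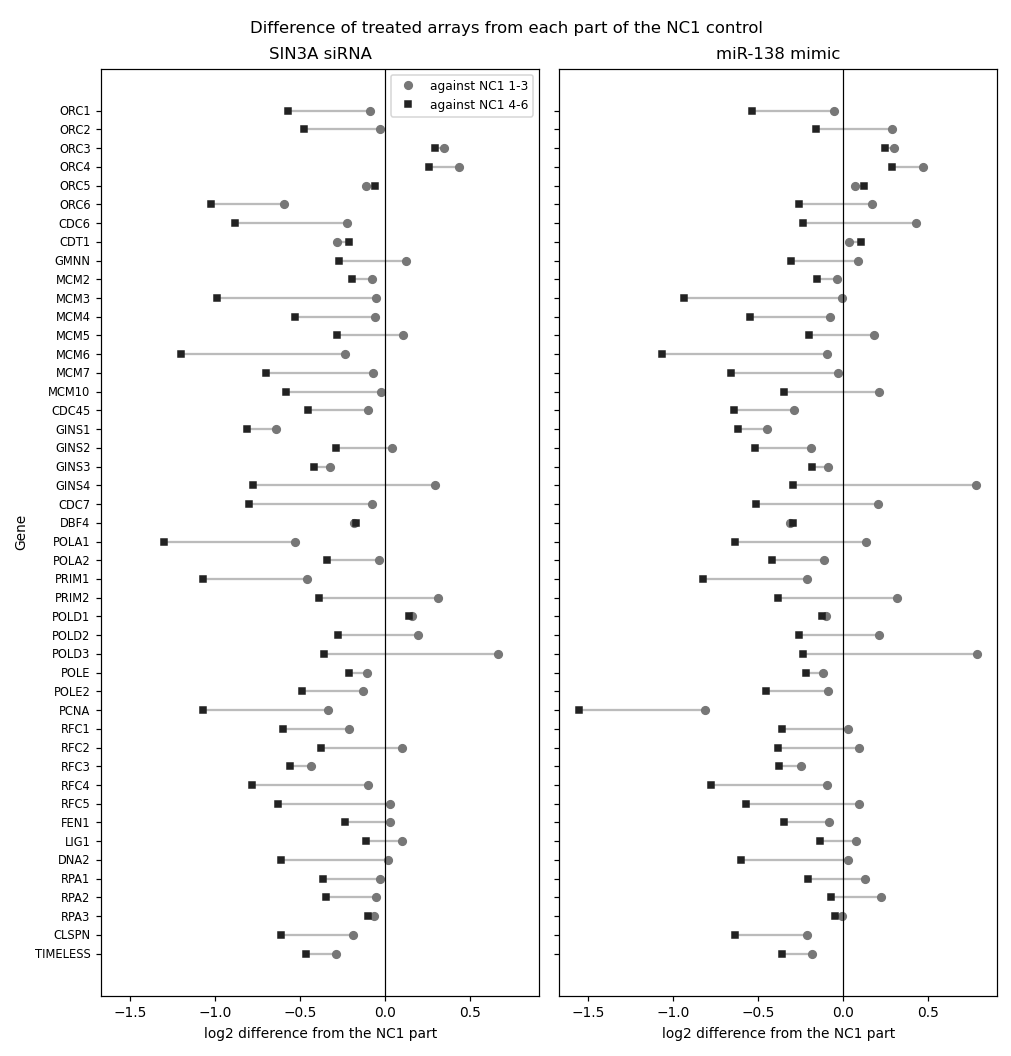
Each row is 1 member. The horizontal axis gives the log2 difference of the siRNA arrays (left) or mimic arrays (right) from NC1 1 to 3 (circles) and from NC1 4 to 6 (squares), joined by a line. For most genes the square lies left of the circle. In ORC6, GINS1, POLA1 and PRIM1 with the siRNA and in PCNA with the mimic, circle and square are both left of 0, with differences that passed.

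By role, the members lower with the siRNA than in NC1 4 to 6 were 4 of 9 loading genes, 4 of 6 MCM2-7 genes, 6 of 8 activation genes, 6 of 9 polymerase and primase genes, 6 of 6 clamp and loader genes, 2 of 6 genes for lagging strand and single-strand binding, and 2 of 2 fork protection genes. With the mimic they were 1 of 9, 4 of 6, 3 of 8, 3 of 9, 4 of 6, 1 of 6 and 1 of 2. Over all genes, 6.28% were lower with the siRNA and 1.89% with the mimic than in NC1 4 to 6. None of the 6 MCM2-7 genes was called against NC1 1 to 3 with either treatment. MCM3 shows this, at 6.09, 6.16 and 6.09 with the siRNA and 6.06, 6.06 and 6.37 with the mimic. Its difference was -0.06 and -0.01 from NC1 1 to 3, with 95% intervals of -0.29 to 0.18 and -0.24 to 0.23, and -0.99 and -0.94 from NC1 4 to 6. MCM6 was at 6.16, 5.94 and 5.93 with the siRNA and 5.91, 6.21 and 6.31 with the mimic. Its differences were -0.24 and -0.10 from NC1 1 to 3 and -1.20 and -1.07 from NC1 4 to 6.

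POLD3 went in opposite directions against the parts. It was at 7.68, 7.80 and 8.01 with the siRNA, above all of NC1 1 to 3 (difference 0.66, limma adjusted p = 0.00263) and below all of NC1 4 to 6 (-0.36, 0.0449). With the mimic it lay between 7.86 and 8.02, which was 0.79 above NC1 1 to 3 (limma adjusted p = 0.000328) and did not pass against NC1 4 to 6 (-0.24, 0.409). The other members higher with the mimic than in NC1 1 to 3 were GINS4 (5.91, 5.86 and 6.21, difference 0.78), CDC6 (10.06, 10.17 and 10.03, difference 0.42) and ORC4 (difference 0.47). Of these, GINS4 and CDC6 differed from NC1 4 to 6 by -0.29 and -0.24, neither passing, and ORC4 by 0.29, not passing.

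The direct comparison of the mimic with the siRNA shares no control arrays. ORC6 was the 1 member called, higher with the mimic by 0.76 (SE 0.17, limma adjusted p = 0.0351), against 0.679% of all genes higher, and none was lower, against 0.89%. The mimic arrays at 7.65 to 7.79 lay above the siRNA arrays at 6.81 to 7.12. The call was lost without any 1 of the 6 treated arrays (limma adjusted p = 0.0923 to 0.137), and with 3 arrays against 3 the exact permutation p was 0.1, the smallest possible. The median difference of the members was 0.05, and 5 members had an unadjusted p under 0.05, against 13.6% of all genes. All mimic arrays lay above all siRNA arrays for 7 members and below for 4, against 13.3% and 13.1% of all genes.

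CDC6 was higher with the mimic by 0.65 (95% interval 0.24 to 1.06, limma adjusted p = 0.111) and POLA1 by 0.66 (0.19 to 1.14, 0.166), and neither passed over all genes in the fit of 3 group means. For PCNA the difference was -0.48 (95% interval -0.96 to 0.0032, limma adjusted p = 0.370), with the mimic arrays below all siRNA arrays. With the NC1 parts apart, 3 members were higher with the mimic by limma (ORC6, adjusted p = 0.00149; CDC6, 0.000328; POLA1, 0.000569) and 1 was lower (PCNA, 0.0220), against 3.26% higher and 2.6% lower among all genes. The calls on CDC6, POLA1 and PCNA thus depended on whether the gap between the NC1 parts entered the residual spread. For MCM3 and MCM6 the differences were 0.05 (-0.52 to 0.62) and 0.14 (-0.48 to 0.76), intervals that leave room for changes in either direction. They come from the fit of 3 group means, in which the gap between the NC1 parts entered the residual spread. With the parts apart the SE was 0.11 for MCM3 and 0.14 for MCM6, and neither passed (limma adjusted p = 0.893 and 0.715). When the siRNA was first set against NC1 1 to 3 and the mimic against NC1 4 to 6, which adjoin them in the list of samples, the mimic difference was below the siRNA difference for 9 members and above it for none by limma, against 1.19% and 0.896% of all genes. The 9 were PCNA (-1.22), POLD3 (-0.90), MCM3 (-0.88), MCM6 (-0.83), PRIM2 (-0.69), RFC4 (-0.68), DNA2 (-0.62), RFC5 (-0.60) and MCM7 (-0.58). These values contain the difference between the NC1 parts, and ORC6 was not called in them (0.34, limma adjusted p = 0.452).

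Outside the members, 48 measured genes of a list of other replication and fork genes gave 2 lower and 0 higher with the siRNA against NC1 (limma, all genes), against 1.66% lower and 2.35% higher among all genes, with a median of -0.16 and 16 at an unadjusted p under 0.05 (16.4% of all genes). The 2 were CHAF1B, a subunit of the assembly factor that loads histones behind the fork (-0.68, limma adjusted p = 0.0215), and TOPBP1, a scaffold of origin firing and of the checkpoint (-0.49, 0.0410). With the mimic none was called by limma, with 9 at an unadjusted p under 0.05 (11.3% of all genes) and a median of -0.11. Between the NC1 parts 18 of the 48 were higher in NC1 4 to 6 and 2 lower (TOP1 and POLD4), with a median of 0.28. By the same test 6.86% of all genes were higher and 3.18% lower.

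CLSPN, the fork protein and the 1 member with a second probe set, shows a limit of the arrays. Its main probe set differed from NC1 by -0.40 with the siRNA and -0.42 with the mimic, and the second by -0.23 and 0.14, so the probe sets differ in sign for the mimic. Between the NC1 parts they gave 0.42 and 0.80.

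Members with and without the E2F-type letters shown above were set side by side. Between the NC1 parts the median difference was 0.32 over the 18 members with the letters, 8 of which were higher in NC1 4 to 6, and 0.43 over the 21 without them, 13 of which were higher. With the siRNA against NC1 the medians were -0.38 and -0.26, and 4 and 2 members were lower. ORC6 and PRIM1 were the 2 without the letters. With the mimic they were -0.27 and -0.15, and PCNA was the 1 member with the letters that was lower. By limma over all genes, 6.86% were higher in NC1 4 to 6, 1.66% lower with the siRNA and 0.402% lower with the mimic. The splits by letters are descriptions of few genes, and the windows cover 300 bases only.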

How the data were processed

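RNA from Calu-3 cells was measured on 12 arrays. The file holds the log2 level of every probe set as deposited by the authors, and it was used without further normalization. RMA and Partek 6.3 appear among the tools in the submitters' processing notes, with no role given to either. The number of arrays limits the precision.

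Of 33297 probe sets, 19460 carried 1 gene symbol in the platform annotation, 1754 several and 12083 none. Of the 19460, 19429 matched RefSeq by gene number. Each gene took its single-symbol probe set of highest mean, giving 18417 genes. Only CLSPN among the members had a second probe set.

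limma 3.58.1 (R 4.3.3; lmFit, eBayes) was fitted to all genes with 3 group means (9 residual degrees of freedom) and, for the NC1 parts, 4 (8), with Benjamini-Hochberg adjustment and calls under 0.05. Exact two-sided permutation tests over arrays (84 splits of 3 against 6, smallest p 0.0119) were added for single genes. The scripts were tested on simulated data. Members, lists and the NC1 split were chosen with earlier results of these data known. Values on every array are given for members called in the 3-group fit or against both NC1 parts in 1 direction, and others by count. Same-numbered arrays did not deviate together (r from -0.10 to 0.03), so numbers were not taken as pairs. Alternatives were a second quantile normalization, removal of dim probe sets, averaged probe sets, a trended robust variance, left-out arrays, and a block by replicate number. Another, called the set block, fitted no block term and set each treatment against the NC1 part that adjoins it in the list of samples. A fit of 4 group means for the treatment comparisons, with NC1 as the mean of its parts, was added after the data were seen.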

Additional observations from a re-analysis of the deposited data

Results flagged for a closer look

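Among the 46 members tested over the 6 NC1 arrays, GINS3 had 1 array that stood apart. Its level on NC1 array 2 was 4.65, while the nearest other NC1 array was at 4.83, a gap of 0.688 of the whole range of the 6. Chance marks about 1 in 20 such groups, and here 1 of 46 members was marked. GINS3 is dim on these arrays.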

How the results depend on the processing

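A second quantile normalization gave 2 members lower with the mimic against NC1 (1 as reported) and 2 against NC1 1 to 3 (1). Removing dim probe sets gave 2 higher with the siRNA against NC1 1 to 3 (1). Averaging probe sets and the trended variance moved no count of members by over 1.5 times.

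Arrays that shared a replicate number, from 1 to 3, did not deviate together. NC1 4 to 6 were not checked for pairs with the mimic arrays. The block by replicate number covered arrays numbered 1 to 3. NC1 4 to 6 have no partner there and were left out, so its only controls were NC1 1 to 3. Against these, 2 members were higher with the siRNA (1) and 4 with the mimic (4). The mimic against the siRNA gave 3 higher (1) and 1 lower (0), with the gap between the NC1 parts out of the residual spread. The set block fitted no block term: it set the siRNA against NC1 1 to 3 and the mimic against NC1 4 to 6, as in the results above. Its shifts are thus those of a change of control arrays. In it 1 member was higher with the siRNA (0), 17 were lower with the mimic (1), and 9 were lower (0) and 0 higher (1) with the mimic against the siRNA. The median difference of members was -0.07 for the siRNA in either block, and for the mimic 0.01 with the replicate block and -0.36 with the set block. Over all genes the replicate block gave 915 higher and 366 lower with the mimic against NC1 1 to 3 (1107 and 468). It gave 486 higher and 344 lower with the mimic against the siRNA (125 and 164). It gave 449 higher with the siRNA against NC1 1 to 3 (674). The set block gave 674 higher with the siRNA (433), and 293 higher and 349 lower with the mimic (118 and 74), and the second normalization gave 120 lower with the mimic (74). The replicate block called PCNA (limma adjusted p = 0.0309) and POLA1 (0.00347) with the mimic against the siRNA. With the NC1 parts apart, chosen after seeing the data, lower members were 18 with the siRNA (6) and 9 with the mimic (1), and the mimic against the siRNA gave 3 higher (1) and 1 lower (0). All genes came to 855 higher and 723 lower, 539 and 280, and 600 and 478. Causes of these shifts were not tested beyond the arrays and residuals each fit uses.

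With 1 array left out, the siRNA against NC1 gave 1 (without siRNA array 1) to 9 lower members (without NC1 array 3), and the mimic 0 (without mimic array 1) to 3 (without NC1 array 3). The shares of all genes called lower in these fits were 0.543% and 2.96% for the siRNA, and 0.0923% and 0.722% for the mimic. The mimic against the siRNA gave 0 to 1 higher, and over all genes 23 to 294. The siRNA gave 2 to 5 lower and 1 to 2 higher against NC1 1 to 3 and 21 to 31 lower against NC1 4 to 6. Over all genes these were 197 to 430, 320 to 980 and 733 to 1354. The mimic gave 1 to 2 lower and 3 to 5 higher against NC1 1 to 3 and 12 to 20 lower against NC1 4 to 6. Over all genes these were 253 to 644, 677 to 1461 and 197 to 451. The NC1 parts gave 16 (without NC1 array 5) to 28 higher (without NC1 array 1), against 3.86% and 8.75% of all genes. Of the 7 members of the naming rule, 878 values under all settings kept their side of the threshold, 62 lost it and 25 gained it. The replicate block enters these counts with the same values under NC1 and under NC1 1 to 3. 7 differences changed sign, 3 of them without 1 array, none called on either side. These include the mimic against the siRNA with the set block (POLA1 -0.11, PRIM1 -0.36) and the mimic with the replicate block (ORC6 0.17, POLA1 0.13). The latter are the differences from NC1 1 to 3 given above, as the replicate block left out NC1 4 to 6. RFC3 with the siRNA had an adjusted p of 0.0634 with the set block, and ORC6 between the NC1 parts 0.0921 (difference 0.30) after the second normalization, both by limma.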
